A study of Mus musculus with 17 samples.

Results

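Macrophages that take up hemoglobin recover its iron through a short chain of proteins, and 10 genes of that chain and its partners were followed here in F4/80hi cells sorted from the kidneys of NZB/W mice. The genes were chosen by name for their role, with earlier results of these data known. They were Cd163, Hp, Hmox1, Blvrb, Tfrc, Slc11a1, Slc40a1, Fth1, Ftl1 and Lcn2. The deposited table gave values for 9 of these 10 genes, out of 15780 genes with a symbol, and Ftl1 was not analysed here. NZB/W mice are a hybrid strain that develops a lupus-like kidney disease. All 3 groups were F4/80hi cells from such mice, with 1 Affymetrix array per sample. The prenephritic group (6 arrays) came from animals aged 8 to 16 weeks. The nephritic group (7 arrays) was taken 2 to 6 weeks after proteinuria began, before terminal renal failure. The remission group (4 arrays) was taken 3 to 4 weeks after complete remission, which followed 1 dose of cyclophosphamide, 6 doses of CTLA4Ig and anti-CD154. Ages are given for the prenephritic mice alone, and their titles call them young, so age and disease stage cannot be told apart. Treatment and remission cannot be told apart either. The labels do not state that arrays came from separate animals, so the p-values measure the spread between these samples.

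In tissue macrophages, free hemoglobin is bound in plasma by haptoglobin, and the complex is taken up by the receptor CD163. Heme oxygenase then opens the heme ring and releases iron, which is stored in ferritin or leaves the cell through ferroportin, the product of Slc40a1. Iron also enters through the transferrin receptor, is moved out of phagosomes by the transporter encoded by Slc11a1, and is denied to microbes by lipocalin 2, which binds iron-carrying siderophores.

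The values are log2 expression values from RMA, which brings all arrays to a common distribution. A difference of 1 is therefore a 2-fold change, levels are comparable between arrays for 1 gene but not between genes, and total RNA per cell cannot be read. The array medians ran from 7.49 to 7.68 and pairs of arrays correlated at 0.942 to 0.994, with 0 identical pairs. The lower quartile of all probe set means was 5.02, and genes below it are called dim here. The macrophage markers Adgre1 (which encodes F4/80) and Csf1r had means of 13.08, 13.24 and 13.23, and of 13.47, 13.32 and 13.40, in the prenephritic, nephritic and remission groups. The lowest and highest group means of Cd68, another macrophage marker, were 12.97 and 13.03. The arrays also carried transcripts of kidney tubule cells. A tubule score, the mean centred log2 value of 20 proximal and distal tubule genes, ran from -1.02 to 0.79 in prenephritic arrays, from -2.12 to 0.64 in nephritic arrays and from -0.05 to 1.40 in remission arrays. Nephritic replicate 3 had the lowest score. As these are bulk samples, fewer cells of a type and less RNA per cell cannot be told apart.

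The promoters of 3 genes are shown because these genes differed between groups and RefSeq start sites were given for them. Each is the 250 bases before the RefSeq start site, on the gene's own strand, from build GRCm38.p6, and capitals mark motif matches. The motifs searched on both strands were C/EBP (TTGCNNAA), PU.1 (GAGGAA), AP-1 (TGANTCA) and the TATA box (TATAAA). They occur in 9.56%, 23.3%, 6.75% and 12.4% of all 32851 promoters of this length. Cd163 lies on chromosome 6, plus strand, at chr6:124304401-124304650, and none of the 4 motifs was found in this window. Slc11a1 lies on chromosome 1, plus strand, at chr1:74374953-74375202, with a PU.1 match 152 to 147 bases before the start. Lcn2 lies on chromosome 2, minus strand, at chr2:32387740-32387989, with a C/EBP match 216 to 209 bases and a PU.1 match on the other strand 20 to 15 bases before the start. A match is a description of letters, not a binding site.
Cd163: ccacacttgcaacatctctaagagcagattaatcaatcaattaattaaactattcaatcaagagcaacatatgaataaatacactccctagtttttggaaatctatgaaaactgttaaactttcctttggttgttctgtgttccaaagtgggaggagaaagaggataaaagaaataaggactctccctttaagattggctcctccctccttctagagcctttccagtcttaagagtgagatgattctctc
Slc11a1: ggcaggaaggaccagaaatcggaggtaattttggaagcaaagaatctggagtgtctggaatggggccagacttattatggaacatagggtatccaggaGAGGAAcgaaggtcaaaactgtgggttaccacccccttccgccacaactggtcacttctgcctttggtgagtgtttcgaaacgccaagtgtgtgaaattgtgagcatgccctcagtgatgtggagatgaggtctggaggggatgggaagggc
Lcn2: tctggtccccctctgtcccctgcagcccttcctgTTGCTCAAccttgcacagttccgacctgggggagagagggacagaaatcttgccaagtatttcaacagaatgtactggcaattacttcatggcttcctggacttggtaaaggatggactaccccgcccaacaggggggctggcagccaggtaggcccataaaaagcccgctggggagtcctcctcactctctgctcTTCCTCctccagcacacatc

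In nephritis the hemoglobin receptor gene Cd163 fell 5.36-fold, while Lcn2 rose 7.94-fold, Hp 3.68-fold, Hmox1 2.01-fold and Slc11a1 1.30-fold. In remission the 4 genes that had risen in nephritis were lower again, and the Cd163 mean stood between those of the other groups, with neither difference past the test. The genes for iron import, export and storage, Tfrc, Slc40a1 and Fth1, and the biliverdin reductase gene Blvrb did not pass the test in any comparison.

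Between nephritic and prenephritic arrays, 5 of the 9 genes passed the test (limma, Benjamini-Hochberg adjusted p under 0.05 over all genes), which is 55.6%, against 12.1% of all genes. Of these, 4 were higher, against 6.74% of all genes called higher, and 1 was lower, against 5.32% of all genes called lower. Between remission and nephritic arrays, 4 of 9 passed, 44.4% against 13.3% of all genes. All 4 were lower, against 10% of all genes called lower, and 0 were higher, against 3.27%. Between remission and prenephritic arrays, 0 of 9 passed in limma, against 0.00634% of all genes. At an unadjusted p under 0.05 in that comparison there was 1 of the 9 genes, Cd163, among 2946 genes, or 18.7% of all genes. The single gene called there was Parvg, an adaptor of integrin signalling, at -1.15 ± 0.16 (SE, adjusted p = 0.041), named here after its value was seen. The groups did not overlap for 4, 3 and 1 of the 9 genes in the 3 comparisons, in the same order, against 4.68%, 8.65% and 2.32% of all genes. The 3 comparisons share arrays and are not independent of each other. As the genes were chosen with earlier results of these data known, their shares describe the choice and are no test of enrichment.

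**Figure D1:**
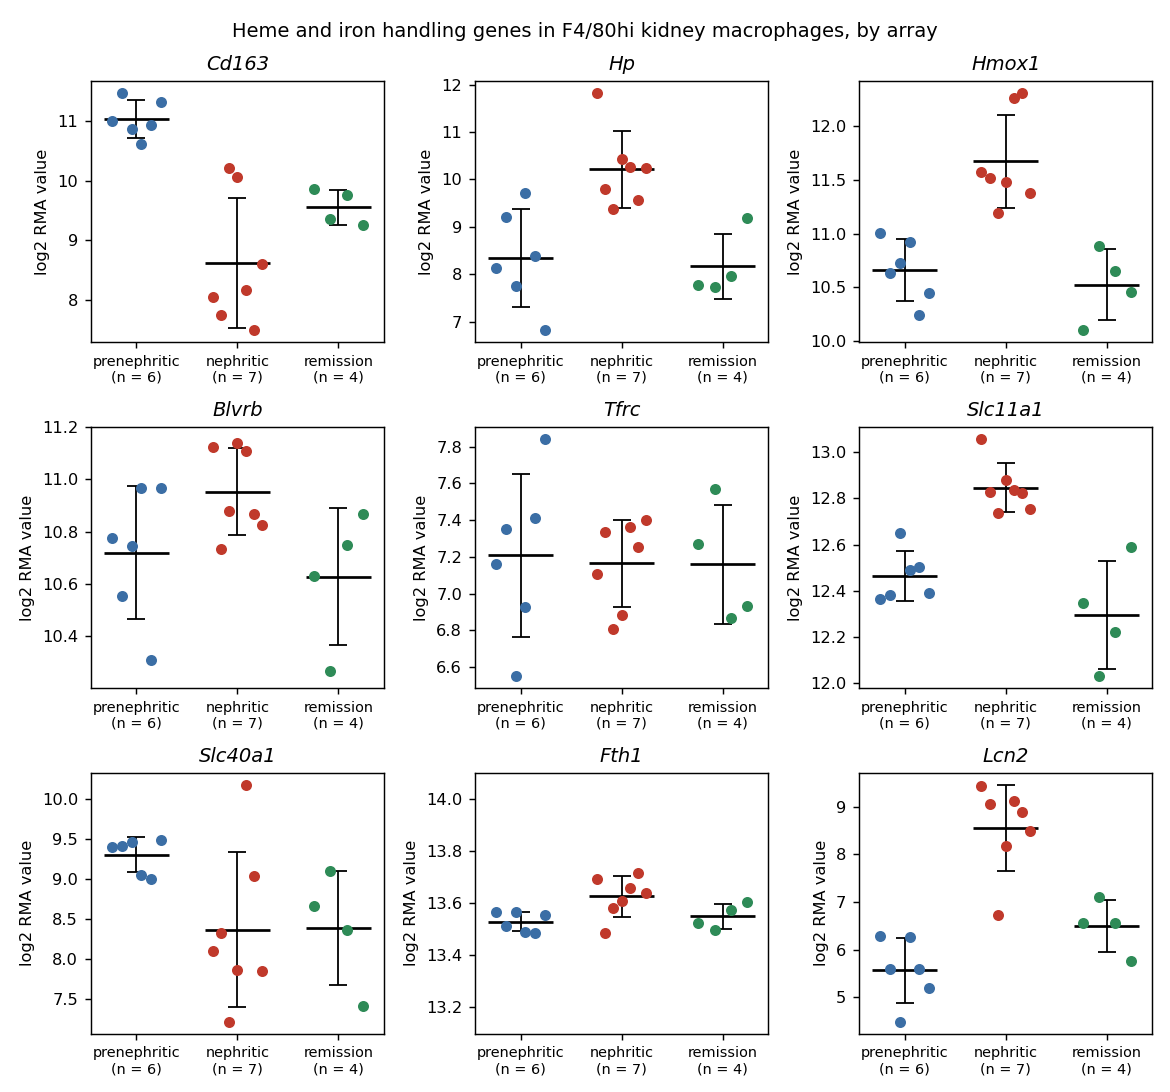
Log2 RMA value of each of the 9 measured genes (vertical axis, a scale of its own per gene) on every array, by group, with horizontal lines at the group mean and bars of 1 SD. The nephritic arrays lie below all prenephritic arrays for Cd163 and above them for Hmox1, Slc11a1 and Lcn2, while the groups overlap for Blvrb, Tfrc and Fth1.

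Cd163 encodes the macrophage receptor for haptoglobin-hemoglobin complexes. In prenephritic arrays its log2 level was 10.62 at the lowest, 10.97 at the median and 11.48 at the highest. The nephritic values were 7.49, 8.17 and 10.22, and the remission values were 9.86, 9.36, 9.76 and 9.26. Every nephritic array was below every prenephritic array, but the nephritic group was uneven: replicates 3 and 4 stood at 10.22 and 10.06, and the other 5 at or below 8.60. The group means were 11.04 ± 0.31 (SD, n = 6), 8.62 ± 1.09 (n = 7) and 9.56 ± 0.29 (n = 4).

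Cd163 fell by 2.42 ± 0.39 (SE) in nephritis, with a 95% interval of -3.24 to -1.60 and an adjusted p of 0.00063 from limma. In remission it was 0.94 ± 0.44 above the nephritic level, with an interval of 0.01 to 1.86 and an adjusted p of 0.16, so this difference did not pass. It passed without nephritic replicate 3 (1.20, adjusted p = 0.045) and with the tubule score as a covariate (1.52, adjusted p = 0.047), and over all alternatives the adjusted p ran from 0.045 to 0.35. Against prenephritic arrays the remission level was -1.48 ± 0.45, or 2.80-fold lower, with an interval of -2.44 to -0.53. These 2 groups did not overlap, and the unadjusted p was 0.0044, but the adjusted p was 0.17 and ran from 0.070 to 0.64 over the alternatives. Mrc1, the mannose receptor gene of tissue macrophages, had means of 13.03, 13.02 and 13.08 in the prenephritic, nephritic and remission groups.

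Hp encodes haptoglobin, the carrier of free hemoglobin. Prenephritic arrays ran from 6.82 through a median of 8.26 to 9.71. Nephritic arrays ran from 9.39 through 10.24 to 11.82, and the remission arrays stood at 7.78, 7.73, 7.96 and 9.19. The nephritic and prenephritic ranges overlapped, whereas every remission array was below every nephritic array. Hp rose by 1.88 ± 0.45 (SE) in nephritis (adjusted p = 0.011, limma). It fell by 2.05 ± 0.51 from nephritis to remission, a 4.13-fold change (adjusted p = 0.014). That call was lost without remission replicate 1 (-1.92, adjusted p = 0.054) or remission replicate 2 (-1.90, adjusted p = 0.057), and the adjusted p ran from 0.0018 to 0.057 over the alternatives. Remission and prenephritic levels differed by -0.17 ± 0.52 (adjusted p = 0.88), with an interval of -1.27 to 0.93.

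Markers of cells that could carry Hp or Lcn2 were measured beside them. Neutrophils store haptoglobin and lipocalin 2 in their granules, and of 10 measured neutrophil genes 1, Csf3r, a receptor gene that monocytes also express, rose in nephritis (0.66 ± 0.15), a share near the 6.74% of all genes called higher. Their summed level, as log2 of the sum of linear values, ran from 9.73 to 12.18 in prenephritic, from 10.72 to 11.25 in nephritic and from 9.70 to 11.31 in remission arrays. The mean S100a8 levels were 7.45, 7.29 and 7.25, and the mean Camp levels were 5.74, 5.75 and 5.97 in those groups. The S100a9 means were 8.39, 8.33 and 8.68. In nephritis S100a8 and S100a9 stood at -0.16 ± 0.79 (SE) and -0.06 ± 0.92, too imprecise to show that neutrophil content was unchanged. In each group 5 of the 10 genes had dim means. Of the 10 differences in nephritis 5 were positive. Ltf, with dim prenephritic and nephritic means of 4.67 and 4.98, stood at 0.31 ± 0.11 (adjusted p = 0.093, limma). Lipocalin 2 is also made by injured tubule cells. Of 7 measured injured tubule genes 0 passed in nephritis, against 6.74% of all genes called higher, and all 7 differences were positive, with a median of 0.84. Their summed level ran from 9.73 to 11.34, from 10.49 to 12.90 and from 10.63 to 12.61. Havcr1, the marker KIM-1, had means of 5.35, 6.19 and 5.41. The keratin genes Krt8 and Krt18 of that list had means of 8.52, 9.42 and 9.76, and of 7.53, 8.60 and 8.48. The part of these cells in the differences of Hp and Lcn2 was not tested.

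Hmox1 encodes heme oxygenase 1, the inducible enzyme that breaks heme into iron, carbon monoxide and biliverdin. Its prenephritic arrays ran from 10.24 through a median of 10.68 to 11.01. The nephritic values were 11.20, 11.51 and 12.31, and the remission values were 10.10, 10.89, 10.65 and 10.46. Every nephritic array was above all prenephritic and all remission arrays, and nephritic replicates 5 and 6 were the highest at 12.26 and 12.31. Hmox1 rose by 1.01 ± 0.19 (SE) in nephritis (adjusted p = 0.0023, limma) and fell by 1.15 ± 0.22 in remission, or 2.22-fold (adjusted p = 0.0024). Remission and prenephritic levels differed by -0.14 ± 0.22 (adjusted p = 0.75), with an interval of -0.61 to 0.33.

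Blvrb encodes a biliverdin and flavin reductase that acts after heme oxygenase. The prenephritic arrays ran from 10.31 through 10.76 to 10.97, the nephritic arrays from 10.73 through 10.88 to 11.14, and the remission arrays stood at 10.63, 10.26, 10.75 and 10.87. All groups overlapped. The differences were 0.23 ± 0.12 (SE) in nephritis (adjusted p = 0.23, limma), -0.33 ± 0.13 from nephritis to remission (adjusted p = 0.12) and -0.09 ± 0.14 between remission and prenephritic arrays (adjusted p = 0.74). The companion gene Blvra, which encodes the main biliverdin reductase, rose by 0.63 ± 0.09 in nephritis (adjusted p = 0.00036) and fell by 0.50 ± 0.11 in remission (adjusted p = 0.0056).

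Slc11a1 encodes NRAMP1, which moves iron and other metals out of the phagosome. Its prenephritic arrays ran from 12.36 through 12.44 to 12.65. The nephritic values were 12.74, 12.83 and 13.06, and the remission values were 12.35, 12.03, 12.22 and 12.59. The nephritic arrays lay above all others, although the differences were small. Slc11a1 rose by 0.38 ± 0.08 (SE) in nephritis (adjusted p = 0.0052, limma) and fell by 0.55 ± 0.09 in remission, or 1.46-fold (adjusted p = 0.0011). Neither difference reached 1.5-fold. Remission and prenephritic levels differed by -0.17 ± 0.09 (adjusted p = 0.34).

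Tfrc encodes the transferrin receptor, the main route of transferrin iron into cells. The prenephritic arrays ran from 6.55 through 7.26 to 7.84 and the nephritic arrays from 6.81 through 7.26 to 7.40. The remission arrays stood at 7.27, 7.57, 6.87 and 6.93. The nephritic range lay wholly within the prenephritic range. The difference in nephritis was -0.04 ± 0.18 (SE), with an interval of -0.42 to 0.33 (adjusted p = 0.92, limma). Those of the other comparisons were -0.004 ± 0.20 and -0.05 ± 0.21. All 3 changed sign under other settings.

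Slc40a1 encodes ferroportin, the exporter of cellular iron. The prenephritic arrays were tight, from 9.01 through 9.41 to 9.50. The nephritic arrays were not, from 7.22 in replicate 3 through 8.11 to 10.19 in replicate 5, an SD of 0.97. The remission arrays stood at 8.67, 9.11, 8.37 and 7.42. The nephritic range covered all arrays of the other groups. The difference in nephritis was -0.94 ± 0.38 (SE, adjusted p = 0.12, limma) and passed without nephritic replicate 5 (-1.24, adjusted p = 0.0098) or with the tubule score as a covariate (-0.77, adjusted p = 0.049). Its adjusted p ran from 0.0098 to 0.20 over the alternatives. The difference between remission and nephritic arrays was 0.02 ± 0.42 (adjusted p = 0.98), and -0.79 with that covariate (adjusted p = 0.17, the lowest over the alternatives, where the highest was 0.99). Remission stood at -0.92 ± 0.44 against prenephritic arrays (adjusted p = 0.27), and at -1.56 with the covariate (adjusted p = 0.30, in a range of 0.19 to 0.50 over the alternatives).

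Fth1 encodes the heavy chain of ferritin, which stores iron. Its values were the most even of the 9 genes. They ran from 13.49 through 13.53 to 13.56 in prenephritic and from 13.48 through 13.64 to 13.71 in nephritic arrays, and were 13.52, 13.50, 13.57 and 13.60 in remission. The groups overlapped throughout. The difference in nephritis was 0.10 ± 0.05 (SE), with an interval of -0.001 to 0.19 (adjusted p = 0.20, limma), and those of the other comparisons were -0.08 ± 0.05 (adjusted p = 0.36) and 0.02 ± 0.05 (adjusted p = 0.85).

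Lcn2 encodes lipocalin 2, the siderophore-binding protein also called NGAL. It had the largest difference of the 9 genes in nephritis. The prenephritic arrays ran from 4.48 through 5.59 to 6.29, and replicate 3 was dim. The nephritic values were 6.72, 8.90 and 9.43, and the remission values were 6.56, 7.11, 6.56 and 5.77. All nephritic arrays exceeded all prenephritic arrays, and nephritic replicate 3, the lowest at 6.72, lay within the remission range. Lcn2 rose by 2.99 ± 0.39 (SE) in nephritis (adjusted p = 0.00014, limma) and fell by 2.06 ± 0.44 in remission, or 4.16-fold (adjusted p = 0.0062). RMA compresses differences of dim genes. The remission level was 0.93 ± 0.46 above the prenephritic level (adjusted p = 0.28), and 0.22 above it with the tubule score as a covariate (adjusted p = 0.93, the highest over the alternatives, where the lowest was 0.15).

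**Figure D2:**
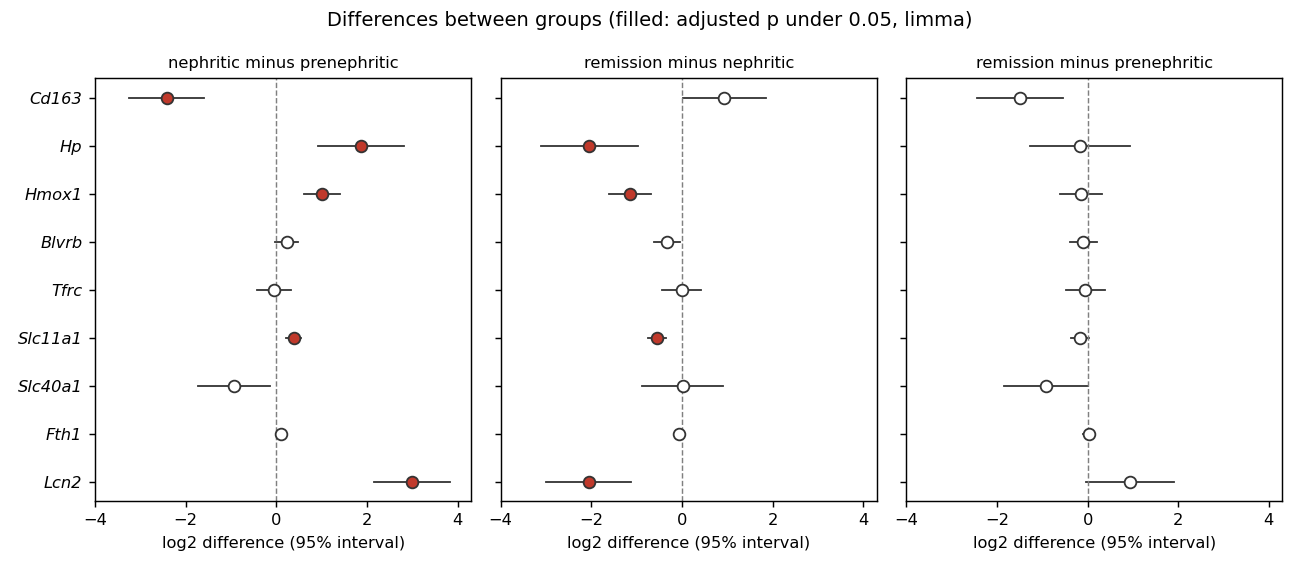
Log2 difference between group means (horizontal axis) of the 9 measured genes in the 3 comparisons, with bars of the 95% interval and filled points where the adjusted p from limma was under 0.05. The calls of the first panel are Cd163 at -2.42, and Hp, Hmox1, Slc11a1 and Lcn2 at 1.88, 1.01, 0.38 and 2.99, and no point of the third panel is filled.

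The median difference of the 9 genes was 0.23 in nephritis, beside -0.02 over all genes, and -0.33 from nephritis to remission, beside -0.03. Nephritic replicate 3 had the highest Cd163 value of its group and the lowest values of Lcn2, Hmox1, Hp, Slc11a1, Tfrc and Slc40a1, as well as the lowest tubule score. Replicate 4 of that group, second highest in Cd163 at 10.06, had the second lowest score of the group at -0.64. Replicate 7, with Cd163 at 8.60, scored -0.48. The relation of Cd163 to this score was not tested. Nephritic replicate 5 had the highest Slc40a1 value of all arrays together with the second highest nephritic Hmox1 value.

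**Figure D3:**
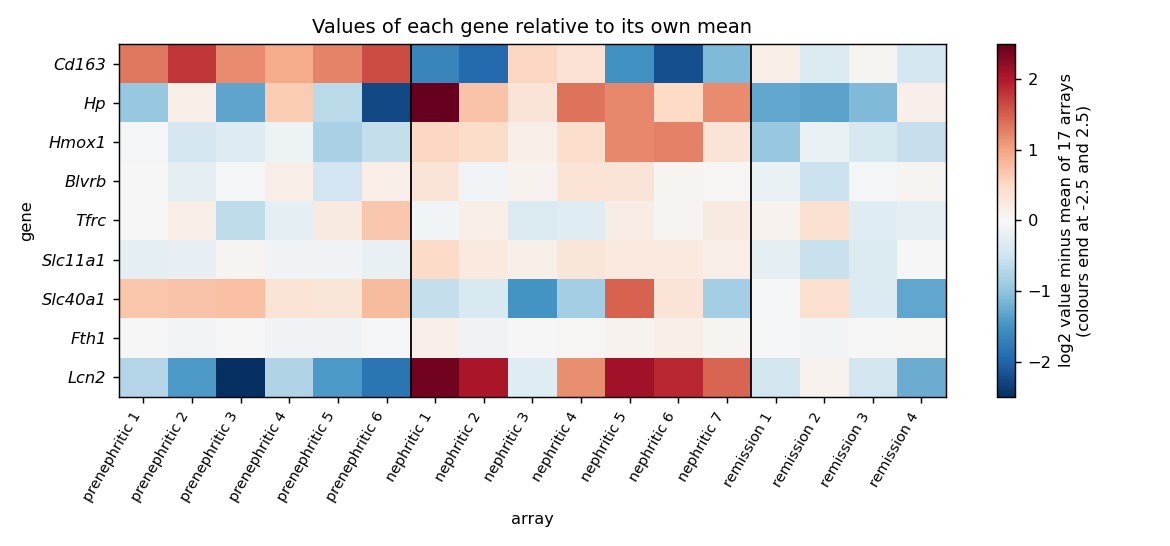
Log2 value minus each gene's mean over the 17 arrays (colour, which saturates at the ends of the bar) for the 9 measured genes (rows) on every array (columns, black lines between groups). In the nephritic block Cd163 is below its mean (blue) in the 5 arrays other than replicates 3 and 4, and Lcn2 is above its mean (red) in all arrays but replicate 3.

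Within groups, the relation of Cd163 to each of the other 8 genes was computed over the 7 nephritic and over the 6 prenephritic arrays, 16 relations in all. Over the nephritic arrays Cd163 and Lcn2 had a Pearson r of -0.84 (exact two-sided permutation p = 0.0083, adjusted p = 0.13 over the 16) and a Spearman rho of -0.68 (exact p = 0.11, adjusted p = 0.56). Replicates 3 and 4 lay farthest from the group's median Cd163 value. With both left out r was -0.39 over 5 arrays. Leaving them out also narrows the range of Cd163, so this value cannot show whether the relation rests on those 2 arrays. Cd163 and Hmox1 had r = -0.64 (exact permutation p = 0.083, adjusted p = 0.44) and rho = -0.82 (exact p = 0.034, adjusted p = 0.53), with r = -0.50 without those arrays. Cd163 and Tfrc had r = -0.82 (exact permutation p = 0.035, adjusted p = 0.28) and rho = -0.39, and r was 0.37 without them. Over the prenephritic arrays the lowest permutation p was 0.16 (exact), for Tfrc with r = 0.65. None of the 16 relations passed the adjustment.

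**Figure D4:**
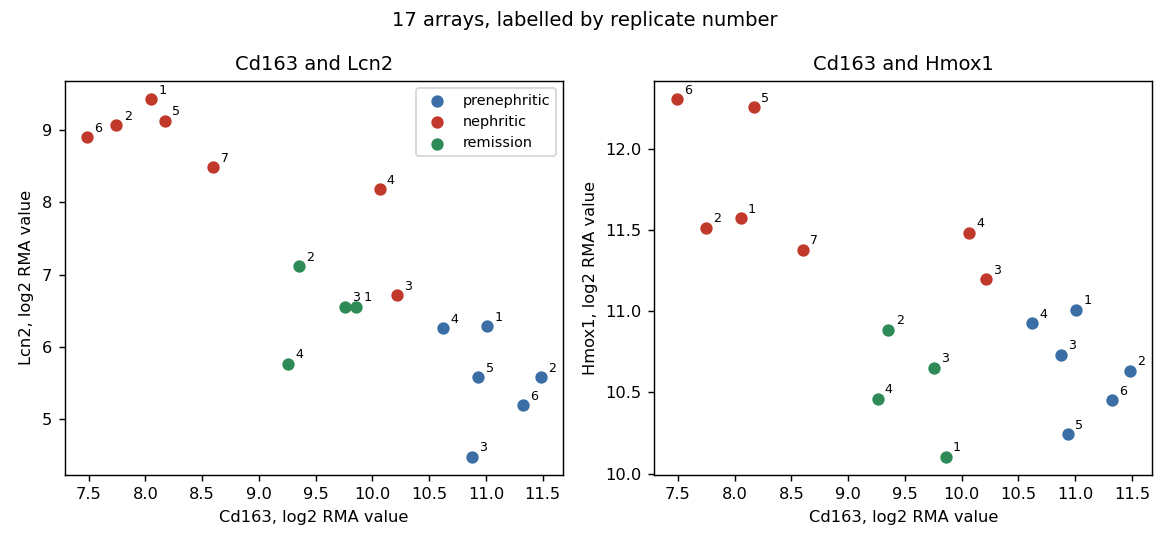
Log2 values of Lcn2 (left) and Hmox1 (right) against Cd163 on the 17 arrays, coloured by group and labelled with the replicate number. Nephritic replicates 3 and 4 lie at Cd163 values of 10.22 and 10.06, apart from the 5 other nephritic arrays at or below 8.60.

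The genes whose levels followed Cd163 most closely over the 17 arrays were H2bc21, a histone H2B gene (Pearson r = 0.93), Ppp1r21 (0.92), Arap3, a GTPase-activating protein gene (0.91), Ipo9, an importin gene (0.91), and Matn2, a matrix protein gene (0.90). These points share the group differences, and after the group means were removed r was 0.77, 0.83, 0.79, 0.69 and 0.68. In nephritis all 5 fell, by 0.50, 0.39, 0.99, 0.67 and 1.32 on the log2 scale. They were picked for following Cd163, so these values describe the choice.

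The wider pathway was described with 10 lists of other heme and iron genes, of which 64 of 74 were measured. In nephritis 11 were called higher and 1 lower, 18.8% against 12.1% of all genes. The median difference was 0.07 beside -0.02, and 40 of the 64 differences were positive. From nephritis to remission 1 was called higher and 8 lower, 14.1% against 13.3%. The median there was 0.02 beside -0.03, and 34 differences were positive. The second share is near the background. These lists, too, were chosen with earlier results of these data known. Between remission and prenephritic arrays 0 of 64 passed in limma, against 0.00634% of all genes. An unadjusted p under 0.05 was found for 11 of 64 there, and for 18.7% of all genes.

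The counts of single lists are small, and each stands against 6.74% of all genes called higher in nephritis and 10% called lower in remission, so that 1 call in a list of 10 is near the background. Among genes of heme and hemoglobin uptake, 1 of 5 rose in nephritis. It was Slc48a1, the exporter of heme from the phagolysosome (0.31 ± 0.09 SE, adjusted p = 0.041, limma). Lrp1, the receptor for heme bound to hemopexin, was at 0.26 ± 0.13 in nephritis (adjusted p = 0.20) and fell by 0.56 ± 0.14 in remission (adjusted p = 0.015), the only call of that list there. The remission call of Lrp1 was lost with the tubule score as a covariate (-0.41, adjusted p = 0.12). Of heme breakdown and export genes, 2 of 4 rose, Blvra and the heme exporter gene Flvcr1 (0.24 ± 0.08), and in remission Blvra alone fell. Hmox2, the constitutive heme oxygenase gene, stood at 0.24 ± 0.08 in nephritis (adjusted p = 0.072). Abcg2 of the same list stood at 0.64 ± 0.24 from nephritis to remission (adjusted p = 0.083, limma). Of 9 iron uptake genes 3 rose in nephritis: the metal transporter genes Slc11a2 (0.55 ± 0.11) and Slc39a14 (0.39 ± 0.11), and Steap3, an endosomal ferrireductase gene that was dim in all groups (0.39 ± 0.08). Of these, Steap3 passed in remission as well and fell by 0.45 ± 0.09.

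Of 4 iron export genes, Cp alone passed in nephritis. Cp encodes ceruloplasmin, the ferroxidase that assists ferroportin. Its log2 level ran from 9.45 through 10.02 to 10.40 in prenephritic and from 10.88 through 11.13 to 11.51 in nephritic arrays, with no overlap. It rose by 1.28 ± 0.21 (SE, adjusted p = 0.00080, limma) and fell by 0.96 ± 0.24 in remission (adjusted p = 0.014), a call that was lost with the tubule score as a covariate (-0.87, adjusted p = 0.071). Hamp, the gene of hepcidin, the hormone that removes ferroportin from the cell surface, was dim throughout, with means of 3.62, 3.50 and 3.65. Of 3 ferritin handling and iron chaperone genes 0 passed in nephritis and 0 in remission.

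Slc22a17, which encodes a receptor for lipocalin 2, went the other way from Lcn2. It ran from 7.06 through 7.63 to 7.81 in prenephritic and from 6.39 through 6.99 to 7.35 in nephritic arrays, with some overlap. It fell by 0.67 ± 0.14 (SE, adjusted p = 0.0050, limma) in nephritis, the only 1 of the 64 genes called lower there. It rose by 0.73 ± 0.16 in remission (adjusted p = 0.0071). With the tubule score as a covariate both calls were kept, at -0.67 (adjusted p = 0.0045) and 0.73 (adjusted p = 0.029). The other measured siderophore gene, Bdh2, stood at 0.07 ± 0.52 in nephritis (adjusted p = 0.96).

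Of 7 regulators of heme and iron genes, Hfe, which tunes hepcidin and transferrin receptor binding, rose in nephritis (0.45 ± 0.09). In remission 3 fell: Hfe by 0.51 ± 0.10, Bach1, the heme-sensing repressor of Hmox1, by 0.55 ± 0.17 (adjusted p = 0.042, limma), and Nfe2l2, which encodes the activator NRF2, by 0.30 ± 0.09 (adjusted p = 0.031). With the tubule score as a covariate the remission calls of Bach1 (-0.30, adjusted p = 0.32) and Nfe2l2 (-0.21, adjusted p = 0.20) were lost. In nephritis Bach1 stood at 0.44 ± 0.15 (adjusted p = 0.075) and Nfe2l2 at 0.23 ± 0.08 (adjusted p = 0.057). Spic, a transcription factor gene of iron-recycling macrophages, stood at 0.14 ± 0.27 (adjusted p = 0.81). Of 10 heme synthesis genes Alas1, the rate-limiting enzyme, rose in nephritis (0.36 ± 0.09), and of 10 mitochondrial iron and iron-sulfur genes Hscb, a co-chaperone, rose (0.36 ± 0.09), with 0 calls of either list in remission. Ppox, another heme synthesis gene, stood at -0.36 ± 0.13 in nephritis (adjusted p = 0.080, limma). Of 10 NRF2 target genes Txnrd1, a thioredoxin reductase gene, rose in nephritis (0.39 ± 0.12). Slc7a11, the cystine transporter gene, fell by 1.23 ± 0.33 in remission, but its means of 4.45 and 3.23 were both dim.

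**Figure D5:**
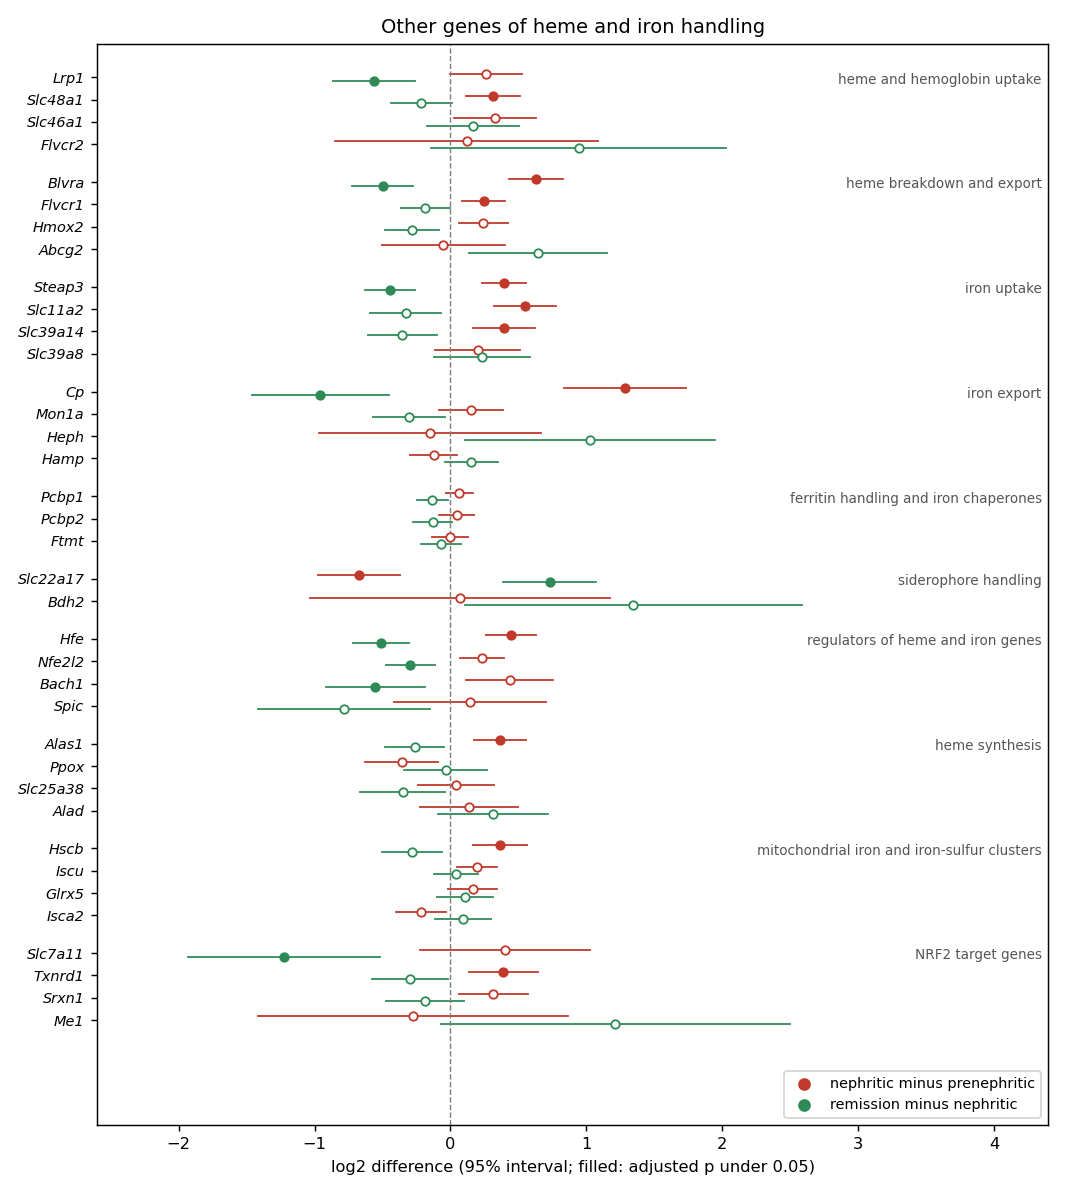
Log2 difference (horizontal axis) of up to 4 genes of each of the 10 pathway lists between nephritic and prenephritic arrays (red) and between remission and nephritic arrays (green), with bars of the 95% interval and filled points where the adjusted p from limma was under 0.05. Cp, at 1.28 and -0.96, and Slc22a17, at -0.67 and 0.73, have filled points on opposite sides of 0.

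Lists of other cells and states were counted beside these genes, to be read against 6.74% of all genes called higher in nephritis, and 10% called lower and 3.27% called higher in remission. Of 11 macrophage markers 2 rose in nephritis, Mertk and Fcgr1, and both fell in remission. Of 8 monocyte markers 4 rose and 3 fell, of 7 B and plasma cell markers 4 rose and 2 fell, and of 8 T and NK cell markers 3 rose and 6 fell, where each first number is for nephritis and the second for remission. Of 16 cell cycle genes 12 rose in nephritis and 15 fell in remission. Among 6 erythroid markers 0 passed in nephritis and 1, Klf1, rose in remission, and the erythroid heme synthesis gene Alas2 was dim in all groups. Slc4a1, another erythroid marker, stood at 1.36 ± 0.50 (SE) from nephritis to remission (adjusted p = 0.080, limma). Between remission and prenephritic arrays it stood at 1.45 ± 0.51 (adjusted p = 0.21). The groups did not overlap there for 2 of the 6 erythroid markers, Slc4a1 among them, against 2.32% of all genes, and 3 of the 6 differences were positive. Of 11 proximal tubule, 9 distal tubule and 8 endothelial markers 0 passed in nephritis. In remission the distal tubule genes Calb1 and Pvalb rose, the injured tubule gene Krt19 fell, and 0 proximal tubule and 0 endothelial markers passed. Even so, all 11 proximal tubule, 9 distal tubule and 8 endothelial differences from nephritis to remission were positive, with medians of 1.10, 1.15 and 0.43. Between remission and prenephritic arrays 0 genes of these 11 lists passed, against 0.00634% of all genes. All 11 proximal tubule, 9 distal tubule and 8 endothelial differences were positive there, with medians of 0.83, 0.98 and 0.55. All 16 cell cycle differences were negative, with a median of -0.47, and the other lists were mixed in sign. What part other cells have in the differences of the 9 genes was not tested. With the tubule score as a covariate the calls of Cd163, Hp, Hmox1, Slc11a1 and Lcn2 in nephritis were kept. That score holds proximal and distal tubule genes alone, so it does not cover injured tubule or other cells.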

How the data were processed

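RNA from sorted F4/80hi kidney cells was hybridised as biotinylated cRNA to Affymetrix arrays, per the labels' protocols. The authors deposited log2 values made by RMA, as the submitters' processing notes name without a version. Not given in the sources used here are the probe definition, its build and filters. Of 16539 probe sets 64 were controls, and the platform annotation gave 1 symbol to 15780, several to 0 and none to 695. By Entrez identifier 15752 were found in RefSeq's GRCm38.p6 gene table.

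Groups and replicate numbers came from the sample titles. With limma 3.58.1, group means were estimated over all 17 arrays in 1 model (R 4.3.3, 14 residual degrees of freedom). Contrasts were two-sided, with Benjamini-Hochberg adjustment over the 15780 genes and a threshold of 0.05. On simulated data for nephritis against prenephritic arrays (15780 genes), 66% of changes of 0.5, 92% of 1 and 100% of 2 on the log2 scale were found, with 11 false calls. For remission against prenephritic arrays 56% of changes of 0.5 were found, with 12 false calls. The simulated noise was independent between genes, so these figures need not hold where genes deviate together on an array. The number of arrays limits the precision.

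The genes, the pathway and marker lists and the rules were chosen with earlier results of these data known. The text names the 10 chosen genes, up to 4 measured genes of each pathway list by smallest p, the 5 genes most correlated with Cd163, and, of the marker lists, some that passed or stand beside a result. The rule covered the first 3 measured markers of each marker list, and only some of these are printed. Sequences came from RefSeq's promoter table, where 7 of the 10 genes had an entry. Hmox1, Hp and Slc40a1 were not among them. Same-numbered samples of different groups correlated at -0.26 to 0.80 in their deviations from the group means, over 0.1 in 8 of 14 pairs. Differently numbered pairs ran from -0.73 to 0.79, with a median of 0.005. These values do not settle whether the numbers pair the samples, and the main fit did not treat them as pairs.

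The alternatives left out dim genes, repeated quantile normalization, subtracted array medians, changed the variance prior, weighted arrays, used the replicate number as a block, restricted the model to the compared groups, asked for at least 1.5-fold, included all probe sets, had a tubule score as a covariate, and left out each array in turn or nephritic replicate 6 and prenephritic replicate 5 together.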

Additional observations from a re-analysis of the deposited data

Results flagged for a closer look

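In 27 gene and group combinations of 4 to 7 arrays, 2 had an array far from the rest of its group by Dixon's criterion, and both were for Hp. Chance flags about 1 in 20 such groups. Nephritic replicate 1 had an Hp log2 value of 11.82, where the next highest nephritic array stood at 10.42. Remission replicate 4 had an Hp value of 9.19, where the next highest remission array stood at 7.96.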

How the results depend on the processing

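Over 28 alternatives, the nephritis calls of Cd163, Hp, Hmox1 and Lcn2 and the remission calls of Hmox1 and Lcn2 were kept in all 28, and the nephritis call of Slc11a1 was lost with the 1.5-fold rule alone. Sign changes occurred only in differences that had not passed the test, those of Hp and Hmox1 between remission and prenephritic arrays among them. The nephritis difference of Tfrc was 0.019 with array weights and 0.035 with the tubule score as a covariate. Its remission minus nephritic difference was 0.19 with the replicate block and 0.011 without nephritic replicate 6 and prenephritic replicate 5 together, and its remission minus prenephritic difference was 0.10 with the replicate block. Slc40a1 turned to -0.79 between remission and nephritic arrays with the covariate. The causes were not tested.

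Of all genes in nephritis, 1904 were called, and 730 with the 1.5-fold rule, 2949 with the covariate and 1236 without the pair of arrays. The pathway calls, 12, became 3, 18 and 7 in the same order. Between remission and nephritic arrays, 2100 genes became 3624 with array weights, 957 with the 1.5-fold rule and 1361 with the covariate, and 9 pathway calls became 18, 3 and 7, of which the last shared 5 with the 9. Between remission and prenephritic arrays, 1 gene became 5 with quantile normalization, 3 with medians subtracted, 3 with the trended robust prior, 358 with array weights, and 0 with only the compared groups, with the covariate or without the pair of arrays.

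The replicate block, which treats the numbers as pairs, gave 5, 4 and 0 of the 9 genes called in the 3 comparisons. It gave 12, 16 and 0 pathway genes, and 1700, 2887 and 478 of all genes. Of 16 arrays, 3 correlated best with their own number.

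Leaving out 1 array at a time gave 5 to 6 of the 9 genes in nephritis and 3 to 5 in remission. Pathway calls ran from 4 (without remission replicate 2; 5 without remission replicate 1) to 13 between remission and nephritic arrays and from 0 to 1 (without prenephritic replicate 6) between remission and prenephritic arrays. All genes called ran from 1021 (without remission replicate 2; 1121 without remission replicate 1) to 2921, and from 0 to 199 (without prenephritic replicate 6; 17 without remission replicate 4). In nephritis, Tfrc ran from -0.17 to 0.084 and Slc40a1 from -1.24 to -0.75. Between remission and nephritic arrays, Cd163 ran from 0.75 to 1.20, Hp from -2.39 to -1.78, Tfrc from -0.14 to 0.093 and Slc40a1 from -0.22 to 0.35. Between remission and prenephritic arrays, Hp ran from -0.51 to 0.10, Hmox1 from -0.26 to 0.0011, Blvrb from -0.17 to 0.030 and Tfrc from -0.18 to 0.080. Values of dim genes and of the prenephritic Lcn2 arrays are limited by signal over background.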
